A study of Mus musculus with 3 samples.

Results

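Rspo2 and Lgr4 were followed through 3 targeted single-cell libraries of mouse bone marrow cells as a secreted ligand and its receptor. They are 2 of the 125 genes that the panel read in the count tables, taken by their gene symbols. Each gene was read through 1 amplicon. Rspo2 lay mainly in the stroma. In the E18.5 marrow 94.1% of the 273 cells with an Rspo2 molecule lay in stromal-like clusters, which held 10.4% of all cells. In the adult marrow it was 88.8% of the 1539 such cells, against 48.0% of all cells. Lgr4 was spread over every class of cells. In the E18.5 marrow 65.0% of the 2066 cells with an Lgr4 molecule lay in clusters that carry the blood cell marker Ptprc (CD45). Those clusters held 83.8% of all cells there, whereas stromal-like clusters held 10.4% of the cells and 27.9% of those with Lgr4.

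R-spondins are secreted proteins that strengthen Wnt signalling. Cells normally clear Frizzled receptors and LRP co-receptors from their surface through the membrane ubiquitin ligases ZNRF3 and RNF43, and an R-spondin bound to an LGR receptor (LGR4, LGR5 or LGR6) draws these ligases away, so that more Wnt receptor stays at the surface. An R-spondin is not itself a Wnt ligand. Rspo2 is known for its part in limb and skeletal development, and Lgr4 is the most widely expressed of the LGR receptors, with known roles in bone-forming cells and osteoclasts.

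Wild-type C57/B6 mice supplied all cells, which were dissected from bone marrow (the femur, according to the study's methods) and pooled from several animals. The E18.5 EC library held fetal endothelial cells sorted for CD31 (Pecam1). The E18.5 BM library and the Adult BM library held fetal and adult marrow cells depleted of cells with blood lineage antigens. Each group was therefore 1 library with no replicate, and no test between groups was possible. The intervals given below are 95% intervals for the counting of molecules or cells; they hold no variation between animals, and neither amplified molecules nor cells of 1 library are independent samples.

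The 3 libraries kept 4038, 12844 and 7939 cells with a median depth of 83.0, 97.0 and 242 panel molecules per cell. Between 38 and 113 cell barcodes occurred in more than 1 library, about the number that barcodes drawn independently would share (36.3 to 116), and cells were kept apart by library. Clusters were built within each library without any Wnt pathway gene, Rspo2 and Lgr4 included, and were called endothelial-like, stromal-like, chondrocyte-like or haematopoietic-like by markers such as Pecam1, Postn, Col2a1 and Ptprc. The term Ptprc cells is used for the haematopoietic-like clusters together with every unnamed cluster in which more than 50% of the cells held a Ptprc molecule. The sorts set the shares of classes: endothelial-like cells made up 75.1% of the E18.5 EC library and 3.18% of the E18.5 BM library, and Ptprc cells made up 83.8% of the latter. In the E18.5 BM library the endothelial-like cluster itself held Ptprc in 12.5% of its cells. No doublet caller was run.

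The level of a gene is given throughout as its molecules per 10000 panel molecules of the same cells, written "per 10000". A level therefore also depends on what else the panel reads in these cells. The 2 genes have different amplicons, so levels are compared between cells for the same gene and never between Rspo2 and Lgr4. The amplicon of Rspo2 is assigned to transcript ENSMUST00000063492.7, whose gene lies on chromosome 15 from 43020797 to 43170818 on the minus strand with 6 exons. That of Lgr4 is assigned to ENSMUST00000046548.13 on chromosome 2 from 109917647 to 110014257 on the plus strand with 18 exons (GRCm38, which is mm10).

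Among the named classes and Ptprc cells, Rspo2 stood highest in stromal-like cells in every library. At E18.5, 716 of the 744 molecules of the BM library lay in the 1342 stromal-like cells, a level of 19.8 per 10000 (18.4 to 21.3). The 408 endothelial-like cells held 1 molecule (0.252 per 10000), and the 10761 Ptprc cells held 11 (0.0880 per 10000, 0.0439 to 0.157). The stromal level was thus 225 times that of Ptprc cells (125 to 453) and 78.6 times that of endothelial-like cells (14.1 to 3108), the last ratio resting on the single endothelial molecule.

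In the E18.5 EC library Rspo2 was close to absent. No molecule was found among 3031 endothelial-like cells, which allows a share of up to 0.0990% of these cells and a level of up to 0.110 per 10000, nor among 982 Ptprc cells, which allows up to 0.305% and 0.197 per 10000. The 5 molecules of this library all lay in 2 of its 25 stromal-like cells, at 6.99 per 10000 (2.27 to 16.3). The lower 95% limit of the ratio to endothelial-like cells was 35.0 and of that to Ptprc cells 19.5, from these 5 molecules against none.

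In the adult library, stromal-like cells held 4565 of 6324 Rspo2 molecules, at 13.2 per 10000 (12.9 to 13.6). Endothelial-like cells reached 1.66 (1.19 to 2.25), Ptprc cells 0.427 (0.185 to 0.842) and chondrocyte-like cells 0.204 (0.144 to 0.280) on the same scale. The order of the adult classes was thus stromal, endothelial, Ptprc and chondrocyte, and no neighbours in it had overlapping intervals except the last, which met between 0.185 and 0.280. A further 1672 molecules lay in 281 cells of an unnamed cluster with Prg4 (lubricin, the lubricating protein of joint surfaces), whose level of 30.0 was above that of the stromal-like class.

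The endothelial level of the adult library came mainly from a small group of cells. Of its 41 molecules, 31 lay in a cluster of 34 cells led by Stab1 and Kdr, where Rspo2 stood at 17.1 per 10000 (11.6 to 24.3). Without the endothelial-like cells that held a molecule of Lepr (the leptin receptor, a marker of adult reticular stroma), the endothelial level was 0.412 per 10000 from 9 molecules. Without the 34-cell cluster, the ratio of stromal-like to endothelial-like cells was 30.3 in place of 7.98 (5.87 to 11.1). Whether these were cells of mixed content was not tested.

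**Figure D1:**
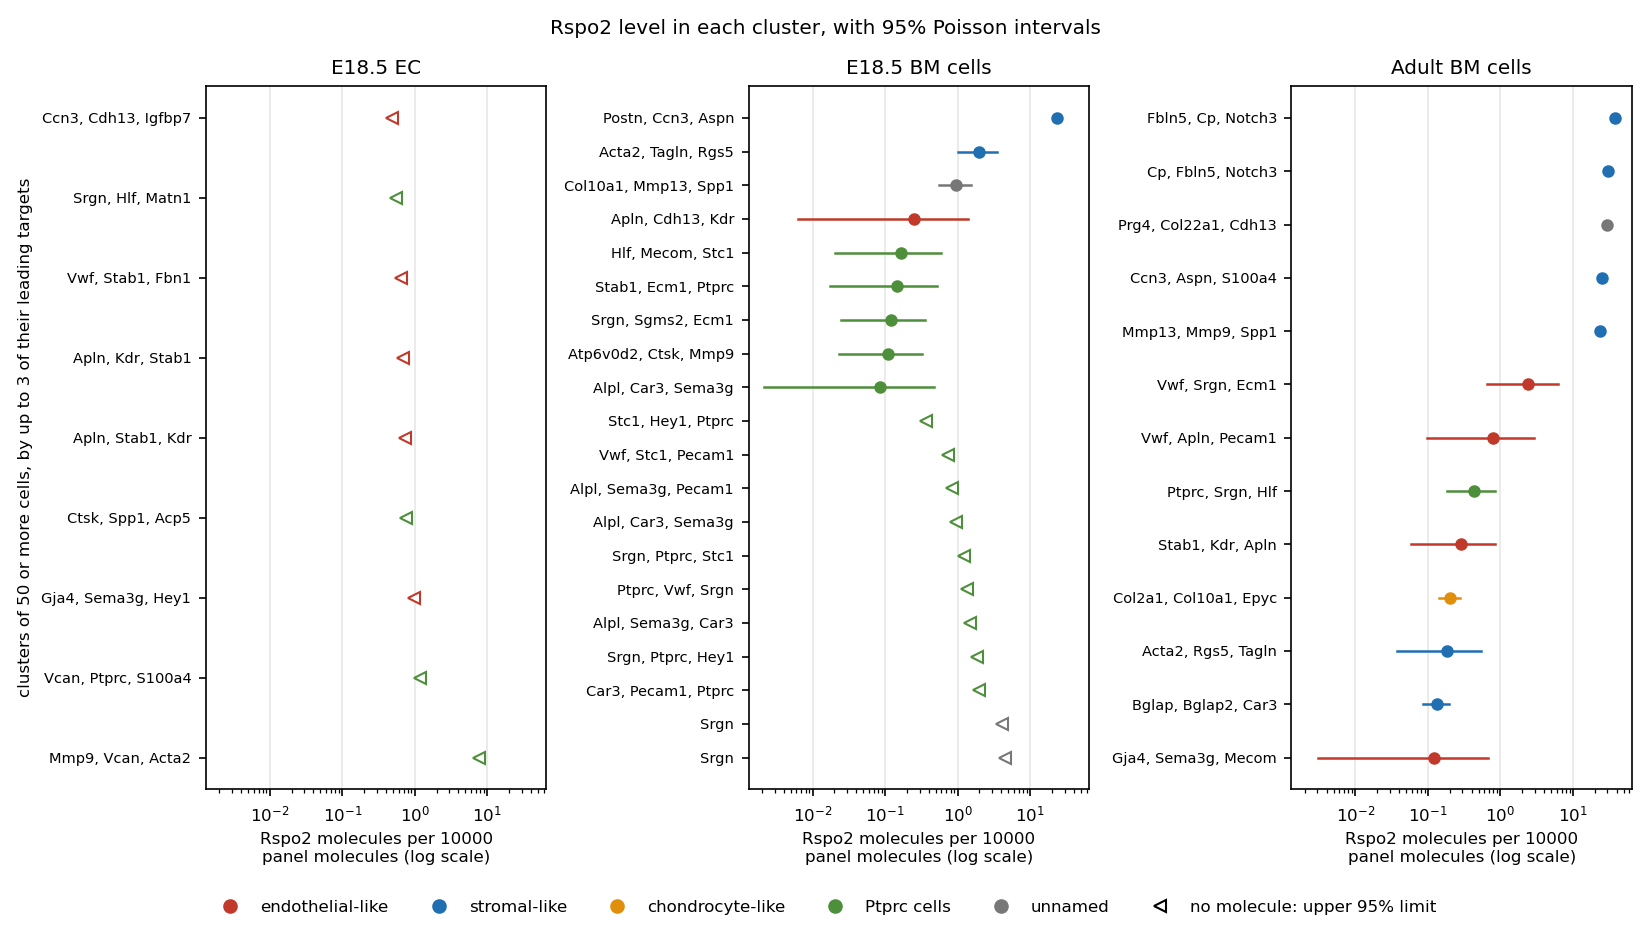
Rspo2 molecules per 10000 panel molecules (log scale) in each cluster of 50 or more cells, named by its leading targets, in the 3 libraries. Points are levels, lines 95% Poisson intervals and open triangles the upper limit where no molecule was found. In the E18.5 BM library 1 stromal-like cluster stood at 23.4 and every other cluster with a molecule at 1.98 or lower, whereas 5 adult clusters stood between 24.0 and 38.5.

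Within the E18.5 stroma, Rspo2 was a gene of a single cluster. It was led by Postn (periostin), Ccn3 and Aspn (asporin), matrix genes of fibroblastic and periosteal cells, and this Ccn3, Aspn, Postn cluster held 94.6% of all Rspo2 molecules of the library, 704 in 1169 cells, at 23.4 per 10000 (21.7 to 25.2). The cluster led by Acta2, Tagln and Rgs5, genes of contractile cells around vessels, stood at 1.98 per 10000 (1.02 to 3.45; 12 molecules), which made the former 11.8 times as high (6.72 to 23.0). An unnamed cluster with Col10a1, Mmp13 and Spp1, genes of hypertrophic cartilage and mineralizing matrix, held 16 molecules at 0.955 per 10000 (0.546 to 1.55). Ptprc was detected in 16.4% of the cells of the Ccn3, Aspn, Postn cluster, and its Rspo2 level without those cells was 23.9 per 10000 (592 molecules).

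Adult Rspo2 was shared by 5 clusters. The highest level, 38.5 per 10000 (37.0 to 40), was found in the larger of 2 clusters rich in Cxcl12 and Lepr, the chemokine and receptor that mark reticular niche cells; its 1477 cells held 40.3% of all Rspo2 molecules. The smaller Cxcl12, Lepr cluster (869 cells) stood at 30.2 (28.3 to 32.2) and the Prg4 cluster at 30.0 (28.6 to 31.5). The adult Ccn3, Aspn, Postn cluster reached 25.1 (22.3 to 28.1) and the cluster with Mmp13, Spp1 and Postn 24.0 (22.3 to 25.9). In this order the levels of the smaller Cxcl12, Lepr cluster and the Prg4 cluster were not distinguishable, nor were those of the last 2 clusters, while the larger Cxcl12, Lepr cluster was 1.28 times as high as the smaller (1.18 to 1.37).

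Other adult stroma held little Rspo2. The osteocalcin cluster, led by the osteoblast genes Bglap and Bglap2, had 24 molecules in 310 cells in spite of a median depth of 5606 molecules per cell, which is 0.132 per 10000 (0.0847 to 0.197). The cluster with Acta2, Rgs5 and Tagln had 3 molecules in 310 cells, at 0.183 per 10000 (0.0377 to 0.534). The Ccn3, Aspn, Postn cluster was 190 times as high as the former (125 to 301) and 137 times as high as the latter (46.4 to 668). These ratios depend on the error correction described below. Per 10000 raw panel molecules the Ccn3, Aspn, Postn cluster stood at 28.3, the osteocalcin cluster at 3.17 and the Acta2, Rgs5, Tagln cluster at 3.96. In the osteocalcin cluster 1 cell held 66.7% of the 24 molecules. A 42-cell stromal-like cluster led by Cilp held 46 molecules that all lay in 1 cell.

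The share of cells with an Rspo2 molecule was also highest in stromal-like cells among the named classes, but it did not order the ages or the other adult classes as the levels did. It was 19.2% of E18.5 stromal-like cells (17.1 to 21.4) at a median depth of 237, and 35.9% of adult stromal-like cells (34.4 to 37.4) at a median depth of 402. Ptprc cells gave 0.0836% at a depth of 89.0 in the E18.5 BM library and 0.464% at a depth of 90 in the adult library. Whether the molecules in Ptprc cells came from free RNA was not tested. With every cell thinned to 50 molecules, the E18.5 and adult stromal shares were 6.24% and 10.2%, against 0.0463% and 0.185% of Ptprc cells. The thinned share of adult endothelial-like cells was 0.437% (0.176 to 0.899), whose interval overlapped that of Ptprc cells (0.0381 to 0.538). In the 34-cell endothelial-like cluster, however, 29.4% of cells held Rspo2 (15.1 to 47.5). Of chondrocyte-like cells 2.77% held a molecule at a median depth of 4012 and of endothelial-like cells 1.12% at a depth of 112, although the level of the former was the lower. No thinned chondrocyte-like cell of 433 held a molecule.

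**Figure D2:**
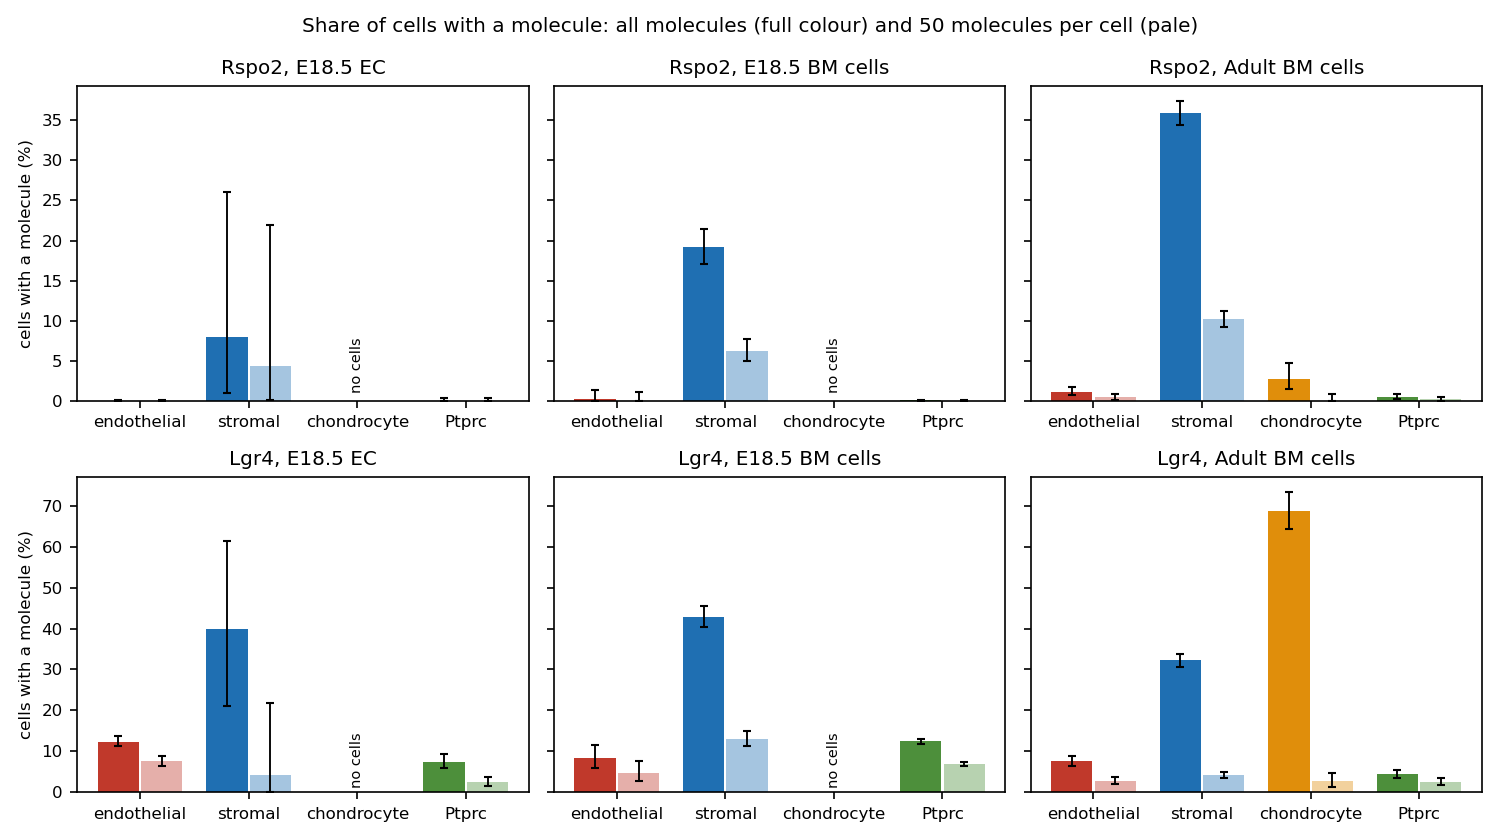
Share of cells (%) with at least 1 molecule of Rspo2 (upper row) or Lgr4 (lower row) by class and library, for all molecules (full colour) and with each cell thinned to 50 molecules (pale). Lines are exact 95% binomial intervals. Rspo2 was seen in 35.9% of adult stromal-like cells and Lgr4 in 68.8% of adult chondrocyte-like cells, and the latter share was 2.77% after thinning.

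Most cells with Rspo2 held few molecules, but the Prg4 cluster did not. The median was 2 molecules per positive cell in both marrow libraries, and 44.0% of positive E18.5 cells and 38.1% of positive adult cells held a single molecule. The highest cell held 18 molecules at E18.5 and 98 in the adult. In the Prg4 cluster the 133 positive cells (47.3% of 281) had a median of 5 molecules, and the 42 cells with 10 or more molecules held 82.5% of the cluster's Rspo2. Prg4 alone made up 84.8% of the molecules of this cluster, so its Rspo2 level per 10000 is lowered by that target.

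With the 14 targets that filled more than 25.0% of any cluster left out of the totals, the Rspo2 level of the Prg4 cluster was 332 per 10000 remaining molecules. The larger and smaller Cxcl12, Lepr clusters then stood at 121 and 109, the Mmp13, Spp1, Postn cluster at 60.9 and the adult Ccn3, Aspn, Postn cluster at 44.5. Among adult clusters of 50 or more cells these 5 were again the highest, now with the Prg4 cluster at the top. The E18.5 Ccn3, Aspn, Postn cluster stood at 46.0.

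The Ccn3, Aspn, Postn clusters of the 2 ages had Rspo2 levels within counting error of each other: the ratio of E18.5 to adult was 0.933 (0.813 to 1.07), and the shares of cells were 21.5% and 23.9%, or 7.08% and 7.10% after thinning. In the adult cluster 1 cell held 59 molecules, 20.1% of its Rspo2, while the top E18.5 cell held 2.56%. The interval of the ratio does not cover such unevenness between cells. The 2 clusters share leading targets but are not the same kind of cluster throughout, since Postn was found in 99.9% of the E18.5 and 21.0% of the adult cells and Prg4 in 1.88% and 72.0%. The adult Cxcl12, Lepr clusters had Rspo2 in 51.2% and 38.1% of cells. Lepr stood at 90.6 per 10000 in the larger of them and at 1.46 per 10000 in the E18.5 Ccn3, Aspn, Postn cluster, where 3.34% of cells held it. Over the stromal-like class as a whole the E18.5 level was 1.49 times the adult level (1.38 to 1.62), but the direction depended on the scale. With the abundant targets left out of the totals the levels were 38.7 at E18.5 and 60.4 in the adult, as a mean over cells 19.7 and 27.1, and the thinned shares above were also higher in the adult. Library preparation and age cannot be told apart between libraries.

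Error correction removed most Rspo2 outside these clusters. The deposited values are molecules after the authors' correction of identifiers (DBEC), and before it the adult library listed 1542 raw Rspo2 molecules in chondrocyte-like cells, of which 38 (2.46%) were kept. In Ptprc cells 8 of 408 raw molecules (1.96%) were kept, in the osteocalcin cluster 24 of 1816 (1.32%) and in endothelial-like cells 41 of 459 (8.93%). In the larger Cxcl12, Lepr cluster 32.9% of raw molecules were kept, in the Ccn3, Aspn, Postn cluster 31.4% and in the Prg4 cluster 33.7%. For Lgr4 the kept share of the adult classes and clusters lay between 17.0% and 36.7%. How far the Rspo2 levels of the other classes fell below the stroma therefore depends on that correction. Per 10000 raw panel molecules, adult stromal-like cells stood at 16.1, Ptprc cells at 6.95, endothelial-like cells at 6.37 and chondrocyte-like cells at 3.14. In the E18.5 BM library the raw levels were 20.1 in stromal-like, 0.735 in Ptprc and 0.485 in endothelial-like cells.

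Lgr4, the receptor, was found in every class and library. In the E18.5 EC library 377 of 3031 endothelial-like cells (12.4%, 11.3 to 13.7) held a molecule, and their level was 16.8 per 10000 (15.3 to 18.4). Ptprc cells of this library stood at 6.03 (4.86 to 7.40), 0.359 times as high (0.284 to 0.450). The 25 stromal-like cells stood at 22.4 (12.8 to 36.3) from 16 molecules, which could not be told from the endothelial level (ratio 1.33, 0.754 to 2.19).

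For the E18.5 BM library the order was stromal-like, Ptprc and endothelial-like cells. Stromal-like cells stood at 26.3 per 10000 (24.6 to 28.0), Ptprc cells at 16.3 (15.6 to 17.1) and endothelial-like cells at 9.32 (6.56 to 12.8; 37 molecules). Stromal-like cells were 2.82 times as high as endothelial-like cells (2.03 to 4.03), and Ptprc cells were 0.622 times as high as stromal-like cells (0.575 to 0.672). The sorted endothelial-like cells of the E18.5 EC library were 1.8 times as high (1.29 to 2.59) as the endothelial-like cells of this library at the same age. Per 10000 raw panel molecules these cells stood at 14.4 in the E18.5 EC and 12.6 in the E18.5 BM library. The size of this difference therefore depends on the error correction.

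Adult Lgr4 levels were lower than those at E18.5. Stromal-like cells stood at 6.79 per 10000 (6.52 to 7.07), endothelial-like cells at 5.50 (4.62 to 6.51), Ptprc cells at 4.17 (3.29 to 5.2) and chondrocyte-like cells at 3.81 (3.54 to 4.11). Neighbours below the stromal-like cells in this order had overlapping intervals. Adult stromal-like cells were 1.23 times as high as endothelial-like cells (1.04 to 1.48), and Ptprc cells 0.614 times as high as stromal-like cells (0.483 to 0.769). With the 14 abundant targets left out of the totals the adult levels were 31.0, 13.1, 9.21 and 10.2 in the same order, so that stromal-like cells were 2.36 times as high as endothelial-like cells (1.98 to 2.83), against 2.77 times in the E18.5 BM library.

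The shares of adult cells with Lgr4 were ordered otherwise than the levels. Chondrocyte-like cells had the highest share, 68.8% at a median depth of 4012, and Ptprc cells the lowest, 4.41% at a depth of 90. After thinning to 50 molecules the shares were 2.77% of chondrocyte-like, 2.75% of endothelial-like, 2.58% of Ptprc and 4.18% of stromal-like cells. No class here is known to lack Lgr4, so no background share could be set, and the first 3 of these shares lay within each other's intervals. At E18.5 the thinned shares were 13.1% of stromal-like, 6.90% of Ptprc and 4.86% of endothelial-like cells of the BM library, and 7.62% of endothelial-like cells of the EC library.

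**Figure D3:**
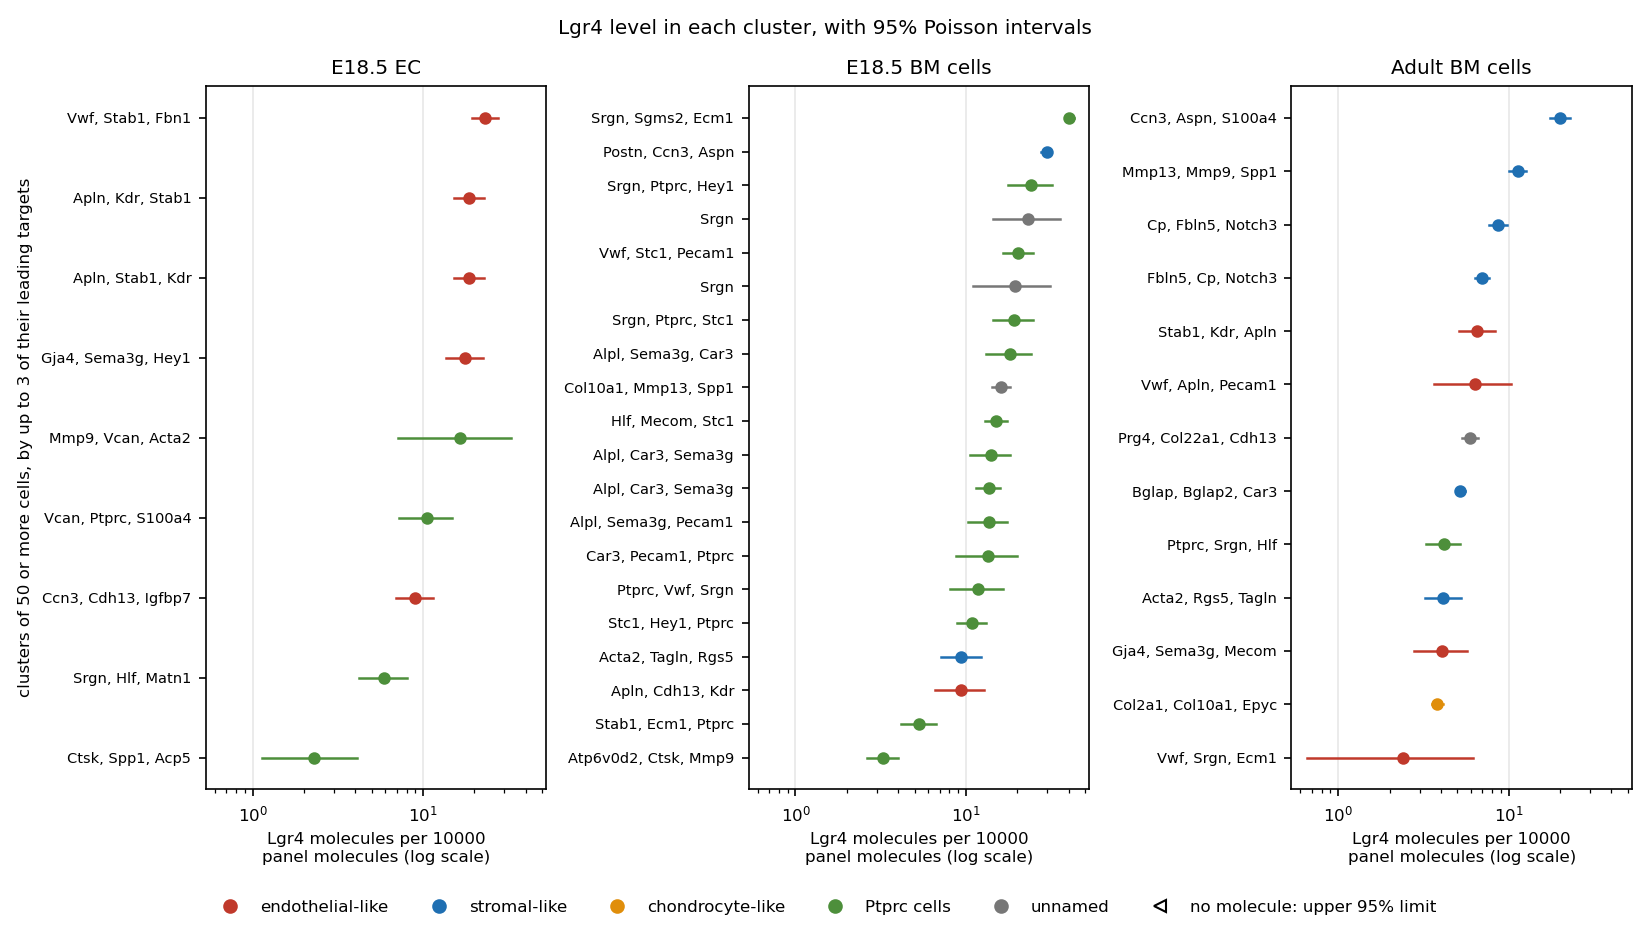
Lgr4 molecules per 10000 panel molecules (log scale) in each cluster of 50 or more cells, in the same layout as for Rspo2. Points are levels and lines 95% Poisson intervals. All clusters held Lgr4, from 2.28 in a cluster with osteoclast enzymes of the E18.5 EC library to 40.4 in the E18.5 cluster with Srgn, Sgms2 and Ecm1.

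The highest Lgr4 level lay in fetal Ptprc cells. A cluster of 1567 cells led by Srgn (serglycin, a granule proteoglycan of blood cells), Sgms2 and Ecm1 held 1007 molecules, 30.2% of the Lgr4 of the E18.5 BM library, at 40.4 per 10000 (37.9 to 42.9). Ptprc was found in 91.8% of its cells and Pecam1 in 69.9%, while Lepr and Acan were close to 0. Its level was 1.36 times that of the Ccn3, Aspn, Postn cluster (1.24 to 1.49), which stood at 29.7 (27.7 to 31.7). The panel holds too few blood lineage markers to name this cluster.

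Other fetal Ptprc clusters differed widely in Lgr4. The cluster with Hlf and Mecom, transcription factors of haematopoietic stem and progenitor cells, stood at 15 per 10000 (12.9 to 17.4). The cluster led by the scavenger receptor gene Stab1 stood at 5.32 (4.18 to 6.68). The cluster with the osteoclast enzymes Atp6v0d2, Ctsk and Mmp9 was the lowest on this scale at 3.26 (2.61 to 4.01), with 88 molecules in 853 cells. The Srgn, Sgms2 cluster was 2.69 times as high as the Hlf cluster (2.29 to 3.17), 7.59 times as high as the Stab1 cluster (5.99 to 9.74) and 12.4 times as high as the osteoclast enzyme cluster (9.96 to 15.6). In the E18.5 EC library the cluster with osteoclast enzymes was again the lowest, at 2.28 per 10000 (1.14 to 4.08).

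The Srgn, Sgms2 cluster had the highest share at equal depth, but its interval overlapped that of the Ccn3, Aspn, Postn cluster. The lowest place depended on the total. The Srgn, Sgms2 cluster had a median depth of 144 and the osteoclast enzyme cluster 272, and 30.6% against 9.38% of their cells held Lgr4. After thinning the shares were 15.1% (13.3 to 17.0) and 1.55% (0.826 to 2.63), the latter within counting error of the Stab1 cluster at 2.21% (1.46 to 3.19). The E18.5 Ccn3, Aspn, Postn cluster had 13.9% (11.9 to 16.0), and the wide intervals of some smaller E18.5 clusters also overlapped that of the Srgn, Sgms2 cluster. S100a4 made up 51.2% of the molecules of the osteoclast enzyme cluster and Srgn 59.6% of those of the Srgn, Sgms2 cluster. With the 14 abundant targets left out of the totals, their levels were 15.3 (12.3 to 18.8) and 106 per 10000 remaining molecules, and the Stab1 cluster stood at 11.1 (8.72 to 13.9).

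Among sorted fetal endothelial cells the clusters also differed. Lgr4 was highest in the Vwf cluster (Vwf, Stab1 and Fbn1, led by the gene of von Willebrand factor) at 23.2 per 10000 (19.4 to 27.6) and lowest in the Ccn3 cluster (Ccn3, Cdh13 and Igfbp7) at 8.94 (6.93 to 11.4). The cluster with the arterial genes Gja4, Sema3g and Hey1 stood between them at 17.6 (13.6 to 22.4), and 2 clusters with Apln, Stab1 and Kdr both stood at 18.7. The Vwf cluster was 2.60 times (1.92 to 3.54) and the Gja4 cluster 1.97 times (1.38 to 2.81) as high as the Ccn3 cluster. The intervals of the Vwf, Apln and Gja4 clusters overlapped.

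Adult stromal clusters differed in Lgr4 in another order than in Rspo2. The Ccn3, Aspn, Postn cluster stood highest at 20 per 10000 (17.5 to 22.8), followed by the Mmp13, Spp1, Postn cluster at 11.3 (10.1 to 12.6). The smaller and larger Cxcl12, Lepr clusters had 8.64 (7.65 to 9.72) and 6.99 (6.37 to 7.66), and the Prg4 cluster 5.96 (5.34 to 6.64). The Ccn3, Aspn, Postn cluster was thus 2.86 times as high in Lgr4 as the larger Cxcl12, Lepr cluster (2.44 to 3.36), although the latter was 1.54 times as high in Rspo2 (1.36 to 1.74). At 42.0% of its cells, or 12.3% after thinning, it also had the highest thinned share of the adult clusters named here.

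The place of the osteocalcin cluster in this order depended on the total. Its level was 5.21 per 10000 (4.89 to 5.56), with Lgr4 in 84.2% of its cells and 3.05 molecules per cell, and 3.23% of its cells held a molecule after thinning. With the 14 abundant targets left out of the totals it stood at 81.5 per 10000 remaining molecules, above the Prg4 cluster (66.0), the Ccn3, Aspn, Postn cluster (35.6), the smaller and larger Cxcl12, Lepr clusters (31.3 and 21.9) and the chondrocyte-like cells (10.2). Bglap3 alone made up 34.0% of its molecules. The data thus do not fix which adult stromal cluster held the most receptor.

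Clusters with shared leading targets stood higher in Lgr4 at E18.5 than in the adult. The ratio was 1.48 for the Ccn3, Aspn, Postn clusters (1.28 to 1.72), 2.27 for the clusters with Acta2 and Rgs5 (1.57 to 3.27) and 4.36 for the clusters with Gja4 and Sema3g (2.83 to 6.84; E18.5 EC against the adult library). The pairs were unlike in other markers: besides Postn and Prg4 in the first pair, given above, Pecam1 was found in 4.62% of the E18.5 and 63.9% of the adult cells of the clusters with Acta2 and Rgs5. Over whole classes the ratio was 3.05 for sorted fetal against adult endothelial-like cells and 3.92 for the Ptprc cells of the marrow libraries. Per 10000 raw panel molecules the E18.5 and adult levels lay closer together. They were 14.4 and 7.49 in these endothelial-like cells, 18.0 and 7.82 in Ptprc cells, and 15.1 and 5.77 in the Gja4 clusters. The thinned shares of the Ccn3, Aspn, Postn clusters overlapped, at 13.9% (11.9 to 16.0) and 12.3% (8.82 to 16.4). Each age was 1 library, so age and library cannot be told apart, and the makeup of the Ptprc cells differed: the adult library held 1 such cluster, led by Ptprc, Srgn and Hlf.

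**Figure D4:**
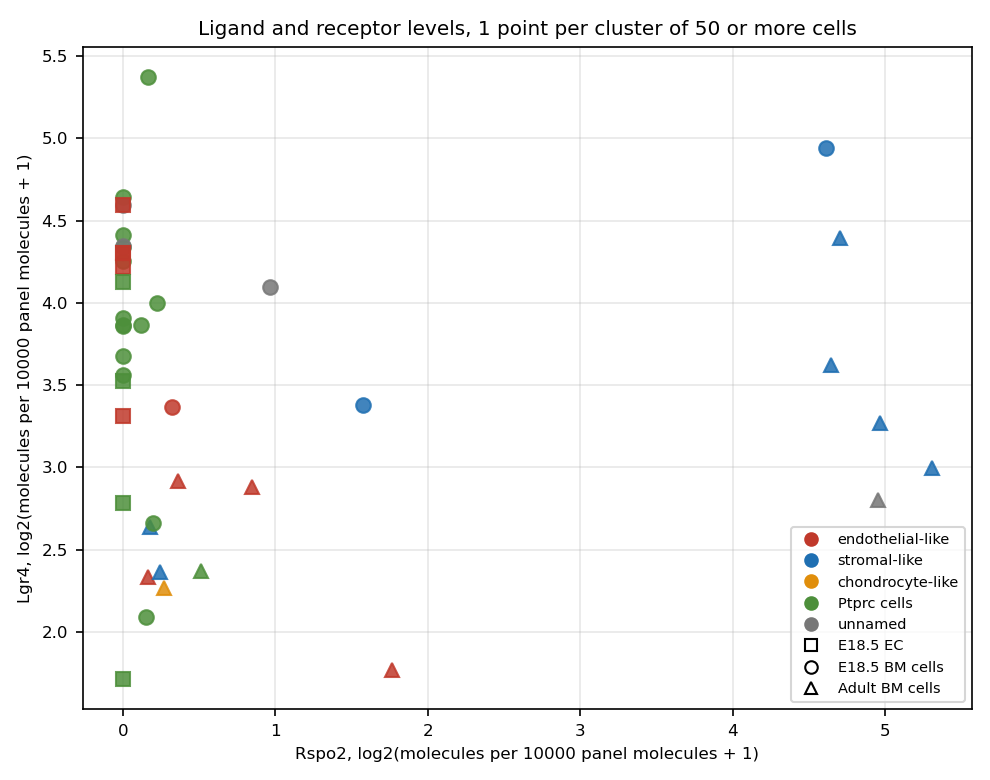
Level of Rspo2 (x axis) against that of Lgr4 (y axis), both as log2 of molecules per 10000 panel molecules plus 1, with 1 point for each cluster of 50 or more cells. Colours give classes and shapes libraries. Clusters with 23.4 or more Rspo2 molecules per 10000 lie at the right, with Lgr4 between 5.96 and 29.7 per 10000. Pearson's r over the 42 clusters was -0.04.

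Across clusters the receptor did not rise with the ligand. Over the 42 clusters of 50 or more cells, Pearson's r of the log2 levels was -0.04 and Spearman's rho -0.36; these clusters share libraries and totals, so both are descriptions. The targets most like Rspo2 over the same clusters were Cp (ceruloplasmin, r = 0.77), the Wnt ligand gene Wnt4 (0.67), Prg4 (0.66), the Dickkopf family gene Dkk3 (0.65) and Cxcl12 (0.64), among 112 targets. Those most like Lgr4 were the Wnt receptor gene Fzd3 (0.63), the cyclin gene Ccne1 (0.53), the Wnt secretion factor Wls (0.50), Myc (0.50) and the Wnt receptor gene Fzd7 (0.50).

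Most cells with both genes were stromal-like, 147 of 150 in the E18.5 BM library and 399 of 491 in the adult library. In the E18.5 BM library 150 cells held both, which is 54.9% of the cells with Rspo2 and 7.26% of those with Lgr4. In the adult library 491 cells held both, 31.9% and 26.1% of the cells with each gene. In the E18.5 EC library it was 1 cell. Of cells without Rspo2, 15.2% held Lgr4 in the E18.5 BM library and 21.7% in the adult library. Among stromal-like cells Lgr4 was found in 57.2% of those with Rspo2 and 39.5% of those without at E18.5. The adult stromal-like shares were 29.2% and 33.9%. Neither gene was detected in 88.6%, 83.0% and 63.1% of the cells of the E18.5 EC, E18.5 BM and adult libraries, shares that fall with depth.

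In the E18.5 Ccn3, Aspn, Postn cluster, Lgr4 was higher in cells with Rspo2. The 251 cells with Rspo2 had 37.2 Lgr4 molecules per 10000 and the 918 cells without had 27.2, a ratio of 1.37 (1.19 to 1.58). Lgr4 was found in 57.4% of the former (median depth 275) and 41.8% of the latter (depth 221), and after thinning in 15 of 81 cells (10.8% to 28.7%) and in 13.5% (11.5% to 15.8%). The thinned shares overlapped.

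Within adult clusters the relation differed. Lgr4 in cells with Rspo2 was 0.803 times that in cells without for the larger Cxcl12, Lepr cluster (0.667 to 0.968) and 0.533 times for the Mmp13, Spp1, Postn cluster (0.407 to 0.691). The ratio was 1.10 (0.861 to 1.4) in the smaller Cxcl12, Lepr cluster, 1.16 (0.870 to 1.54) in the Ccn3, Aspn, Postn cluster and 1.03 (0.828 to 1.29) in the Prg4 cluster, none of which could be told from 1. The pooled adult stroma gave 1.16 (1.06 to 1.28), but this ratio mixes clusters and was 0.871 without the osteocalcin cluster. The ratio of the Mmp13, Spp1, Postn cluster was 0.955 in raw molecules.

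**Figure D5:**
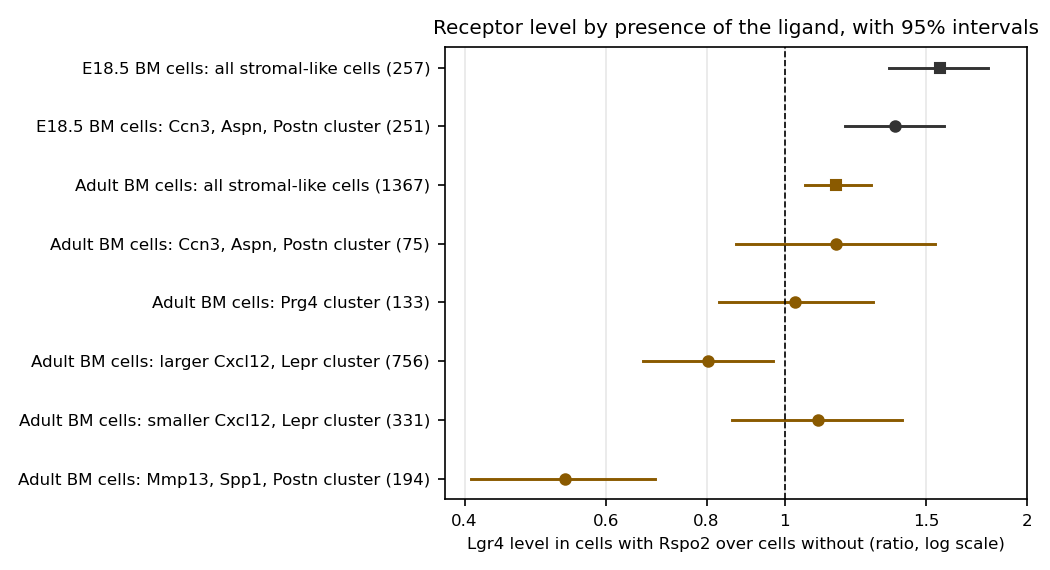
Ratio (log scale) of the Lgr4 level in cells with an Rspo2 molecule to that in cells without, for stromal-like cells (squares) and single clusters (circles), with 95% intervals and, in brackets, the number of cells with Rspo2. The dashed line marks a ratio of 1. The E18.5 cluster stood above 1 (1.37) and 2 adult clusters below (0.803 and 0.533).

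Other targets also differed between cells with and without Rspo2 in the same cluster. In the E18.5 Ccn3, Aspn, Postn cluster 4 of 93 targets (4.30%) were at least 2-fold higher in cells with Rspo2 and 12 (12.9%) at least 2-fold lower. The 4 were the bone matrix gene Spp1 (8.22-fold, 6.2 to 11), the collagenase gene Mmp13 (6.93), the carbonic anhydrase gene Car3 (2.75) and the Wnt receptor gene Fzd4 (2.04, 1.01 to 4.02). Spp1 was present in 6.77% of cells with Rspo2 and 4.79% of cells without, so its ratio rests on few cells. Among the 12 were the cartilage gene Scrg1 (0.159) and the collagen gene Col22a1 (0.172).

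Cells with and without Rspo2 were also compared over the whole stromal-like class, which mixes clusters. At E18.5 the 257 cells with Rspo2 had the highest ratios in Mmp13 (8.41), Spp1 (8.12), Car3 (3.36), Fzd4 (2.12) and the cartilage matrix gene Epyc (1.85). The first 4 of these are the targets higher within the Ccn3, Aspn, Postn cluster as well. There were low ratios in Acta2 (0.164) and Rgs5 (0.0922), which lead the cluster with little Rspo2. The lowest were Sema3g, with 1 molecule against 43 (0.0832, 0.00206 to 0.489), and Atp6v0d2 and Cytl1, with no molecule against 26 and 46. In the adult the 1367 cells with Rspo2 were highest in Lgr5 (15.7, 9.27 to 27.8), Rspo4 (12.8; 17 molecules against 5), Atp6v0d2 (6.26), the Wnt ligand gene Wnt1 (5.87) and the elastic fibre gene Fbln5 (4.42). They were lowest in Sema3g (0.104), the cartilage gene Cilp (0.103), Rgs5 (0.0655), Acta2 (0.0473) and Cytl1 (0.0189).

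In the larger adult Cxcl12, Lepr cluster 7 of 86 targets (8.14%) were at least 2-fold higher in cells with Rspo2 and 6 (6.98%) at least 2-fold lower. The former were Postn (6.6-fold), the smooth muscle actin gene Acta2 (3.62), Ccne1 (3.58), Kdr (the VEGF receptor gene, 3.12), the collagen gene Col12a1 (2.32), the second R-spondin receptor gene Lgr5 (2.25, 1.26 to 4.23) and the Wnt receptor gene Fzd8 (2.04). The latter were Col10a1 (0.404), Cdh13 (0.449), Wnt11 (0.450), the cartilage transcription factor gene Sox9 (0.454), Fzd4 (0.475) and the growth factor gene Ptn (0.496). Fzd4 was thus higher with Rspo2 in the E18.5 cluster and lower in this one. The difference was not tested, and cells with Rspo2 were deeper than cells without (462 against 347 molecules).

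In the Prg4 cluster 9 of 72 targets (12.5%) were at least 2-fold higher in cells with Rspo2 and 14 (19.4%) at least 2-fold lower. The targets named here lay in few cells. Its 133 cells with the ligand had 57 molecules of Atp6v0d2 (a proton pump subunit known from osteoclasts) and its 148 cells without had none, at least 18.0-fold higher; 12.8% of the former held one. Cartilage genes were lower in the cells with Rspo2. Cytl1 stood at 0.00297 times the level of the cells without (15 molecules against 4801), Col10a1 at 0.00163 times (0.000335 to 0.00476; 3 against 1751) and Acan (aggrecan) at 0.00811 times (0.000977 to 0.0296; 2 against 234). Of the cells without Rspo2, 7.43% held Cytl1, 8.78% Col10a1 and 6.08% Acan, so these ratios rest on few cells; Cytl1 was present in 9.02% of the cells with Rspo2. The cells with Rspo2 had a median depth of 1838 and the cells without 1120. These targets took part in the clustering, which placed both kinds of cells together.

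Cells with Lgr4 were set against cells without in the same way. Among sorted fetal endothelial-like cells, the 377 cells with Lgr4 had 7.95 times the level of the Wnt ligand gene Wnt9b (4.73 to 13.6) and 5.74 times that of Wnt2 (4.64 to 7.09), at a depth of 96 against 71.0. Within the Vwf cluster alone the ratios were 7.17 and 4.38. The next highest were Dkk2 (3.52), the alkaline phosphatase gene Alpl (3.50) and Acp5 (3.42). Ptn (0.520) and Ccn3 (0.483) were lower in cells with Lgr4, as were 3 targets with 1 to 3 molecules there, Fzd9 (0.574, 0.111 to 1.86), Postn (0.449, 0.0513 to 1.82) and Col12a1 (0.258, 0.00623 to 1.61), which could not be told from 1. Cells with the receptor thus carried more Wnt9b and Wnt2 also within 1 endothelial cluster.

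In the Srgn, Sgms2 cluster of E18.5 Ptprc cells, the 480 cells with Lgr4 had 3.0 times the Cdh13, 2.58 times the Hey1 and 2.20 times the Wnt11 of the 1087 cells without. Vwf was lower, at 0.195 times. In the E18.5 Ccn3, Aspn, Postn cluster the cells with Lgr4 had 2.10 times the Rspo2 of those without (1.79 to 2.46). Among adult stromal-like cells 70 of 104 targets (67.3%) were at least 2-fold lower in cells with Lgr4 and 10 (9.62%) at least 2-fold higher. The targets highest in cells with Lgr4 were Dkk1 (8.32-fold), Col22a1 (6.59), Smpd3 (6.43), Bglap (6.37) and Bglap2 (6.32), of which Dkk1 encodes a Wnt inhibitor and Bglap and Bglap2 osteocalcins. Bglap, Bglap2 and Col22a1 are leading targets of the deep osteocalcin cluster, where 84.2% of cells held Lgr4. The lowest were Tagln (0.137), Acta2 (0.130), Dkk2 (0.114), Epyc (0.0714) and Rspo4, with 1 molecule against 21 (0.0260, 0.000628 to 0.162).

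Cells with Lgr4 were compared in 4 further classes. The 576 E18.5 stromal-like cells with Lgr4 were highest in Car3 (4.47), Kdr (3.43), Bglap3 (2.98), Bglap2 (2.58) and Bglap (2.53), and lowest in Col22a1 (0.310), Atp6v0d2 (0.284), Mmp9 (0.267), Mmp13 (0.234) and Vwf (0.179, 0.0340 to 0.603; 3 molecules against 20). The 80 cells with Lgr4 in the E18.5 osteoclast enzyme cluster were highest in the stromal genes Ccn3 (17.8, 11.8 to 27.4), Aspn (7.09), the stem cell factor gene Kitl (4.80), Mgp (3.72) and Vcan (3.23). Whether these were cells of mixed content was not tested. The 129 adult endothelial-like cells with Lgr4 were highest in Postn (10.9), Acp5 (6.35), Ccne1 (6.03), Mmp13 (4.96) and Rspo2 (4.71, 2.32 to 9.23; 15 molecules against 26). The 76 adult Ptprc cells with Lgr4 were highest in Wnt11 (6.06, 1.98 to 15.8), Ccne1 (3.30), Vwf (2.33), the Wnt receptor gene Fzd5 (2.14) and Mecom (2.08), and Mmp9 was low (0.0961, 0.0198 to 0.282; 3 molecules against 599).

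The other 3 R-spondin genes lay elsewhere or were sparse. Rspo4 was a gene of adult chondrocyte-like cells, which held 862 of its 890 adult molecules at 4.62 per 10000 (4.32 to 4.94); 56.8% of these deep cells held one, and 2.31% after thinning. The E18.5 BM library held 4 Rspo4 molecules. Rspo3 had 20 molecules in the E18.5 BM library, 16 of them in stromal-like cells (0.442 per 10000), and 35 in the adult library. Rspo1 had 59 molecules in the E18.5 BM library, of which 47 lay in Ptprc cells, and 27 in the adult library. Different amplicons bar any comparison of amounts between these genes.

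The other receptor gene of the panel, Lgr5, lay partly with Rspo2. At E18.5 stromal-like cells of the BM library held 156 of its 315 molecules at 4.31 per 10000 (3.66 to 5.04), 155 of them in the Ccn3, Aspn, Postn cluster, and Ptprc cells held 158 at 1.26 (1.07 to 1.48). The 408 endothelial-like cells had none, a count that allows up to 0.735% of cells. In the adult library stromal-like cells held 93 molecules, 65 of them in the larger Cxcl12, Lepr cluster, at a class level of 0.270 (0.218 to 0.330). Ptprc cells held 23 at 1.23 (0.779 to 1.84), and no molecule was found in the 433 chondrocyte-like cells (up to 0.693% of cells).

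Of 41 genes listed for the R-spondin and Wnt receptor pathway, 23 were in the files: 4 ligands, the receptors Lgr4 and Lgr5, the co-receptor Lrp5 with 8 Frizzled genes, 4 Dickkopf genes, the targets Lef1, Ccnd1 and Myc, and Wls. The ubiquitin ligases Znrf3 and Rnf43 were not read. In the E18.5 BM library 47 of the 98 targets tested (48.0%) were at least 2-fold higher in stromal-like than in endothelial-like cells, and 32 (32.7%) were at least 2-fold lower. Of the 17 pathway genes tested there, 10 were higher and 4 lower, with a median log2 ratio of 1.49 against 0.81 over all targets. In the adult library the background was 37 of 106 targets higher (34.9%) and 45 lower (42.5%), and of 19 pathway genes 7 were higher and 8 lower, with a median log2 ratio of -0.08 against 0.01.

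At E18.5 the stromal pathway genes included Rspo2 and Lgr4 themselves, the Dickkopf gene Dkk3 (83.0-fold), the Wnt receptor genes Fzd2 (66.9, 12.0 to 2649), Fzd7 (5.17), Fzd8 (4.45, 1.19 to 37.3) and Fzd3 (2.96), and Wls (2.18), while Dkk2 and Lgr5 were at least 10.6-fold and 5.71-fold higher, since no endothelial molecule was found. The 4 lower genes were Fzd6 (0.101), Fzd4 (0.124), Ccnd1 (0.140) and Myc (0.357). In the adult, Rspo2, Dkk3 (3.95), Fzd9 (3.75), Fzd5 (2.82) and Fzd7 (2.11) were higher in stromal-like cells and Fzd2 at least 4.04-fold higher. Lgr5 (2.22, 0.737 to 11) passed 2-fold and is counted among the 7, but with 3 endothelial molecules its ratio could not be told from 1. Lower in the adult stroma were Fzd6 (0.0114), Ccnd1 (0.0188), Fzd4 (0.0307), Dkk2 (0.0943), Lef1 (0.101), Fzd8 (0.206), Myc (0.218) and Wls (0.320). Fzd4, Fzd6, Ccnd1 and Myc were thus higher in endothelial-like cells and Rspo2, Dkk3, Fzd2 and Fzd7 in stromal-like cells at both ages, and these directions held with the abundant targets left out of the totals. On that scale the adult counts were 9 higher, among them Lgr4 (2.36), and 7 lower, without Wls (0.611, 0.582 to 0.642).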

How the data were processed

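The authors ran a custom targeted panel on BD Rhapsody cartridges and deposited, per the file headers, read counts and raw, RSEC-adjusted and DBEC-adjusted molecule counts for each cell and amplicon, made with the BD Targeted Rhapsody Analysis Pipeline 1.8 (genome build mm10 in the submitters' notes). The files held 4043, 12884 and 7948 barcodes, as many as the cells stated in the methods, and 137 amplicons of 125 targets. DBEC-adjusted counts were summed per cell and gene symbol. A cell had to hold 20 or more molecules of 5 or more targets. Clusters were built per library on log-scaled non-Wnt, non-cell-cycle targets (11 principal components, 20 neighbours, Leiden resolution 0.5; igraph 0.11.9, scikit-learn 1.9.0) and named from marker lists; the naming rule, which needs at least 3 markers, was settled after leading targets had been seen. Intervals were exact Poisson, Clopper-Pearson and conditional binomial intervals (scipy 1.17.1). A count of 0 was given the limit of 3 counts. Targets were tested with at least 20 molecules over both groups, and 2-fold was the size called; named targets were the 5 highest and 5 lowest in a class; those of single clusters were chosen after their values were seen. The code was tested on simulated data. The 2 members, the marker lists and the pathway list were chosen with earlier results of these data known. Coordinates are from GENCODE on GRCm38. Depth limits low levels; the intervals cover counting error only.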

Additional observations from a re-analysis of the deposited data

Results flagged for a closer look

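Raw molecules, used above only where stated, held Rspo2 where corrected counts were close to 0. The raw counts were 219 molecules in Ptprc cells of the E18.5 BM library, and 459 in endothelial-like, 1542 in chondrocyte-like and 408 in Ptprc cells of the adult library, all above the limit of 3 counts. Their origin was not tested.

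For 3 pathway genes the stromal to endothelial ratio lay on opposite sides of 1 at the 2 ages. Dkk2, a Wnt antagonist gene, was at least 10.6-fold higher in stromal-like cells at E18.5 and 0.0943 times as high in the adult. Fzd8, a Wnt receptor gene, gave 4.45 and 0.206, and Wls, the Wnt secretion factor, gave 2.18 and 0.320. With the abundant targets left out of the totals the adult ratio of Wls was 0.611, within 2-fold, and 79.4% of adult stromal-like against 55.9% of endothelial-like cells held it. With 1 library per age these differences were not tested.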

How the results depend on the processing

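Of 168 alternatives of the class ratios 167 stayed on the same side of 1. Among all 194 ratio alternatives 136 moved within counting error, 53 beyond it and 5 to the other side of 1 although the reported interval excluded 1, as did 1 of 562 for levels, shares and single clusters. The cause was not tested. No paired analysis was possible because each group was 1 library so no library was left out.

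The adult stromal to endothelial ratio of Rspo2, 7.98, was 4.98 with 20 principal components, 2.05 in RSEC and 2.52 in raw molecules, 3.87 with at least 50 molecules per cell, 15.3 without abundant targets in the total, 65.2 with a marker gate, 28.3 as a mean over cells, 30.0 at resolution 1.0, 11.9 without the 2% deepest cells, 30.3 without the 34-cell cluster and 16.8 without the osteocalcin cluster. The chondrocyte to stromal ratio of Rspo2, 0.0154, was 0.332, 0.195, 0.00905, 0.00739, 0.00519 and 0.00732 in RSEC, in raw molecules, without abundant targets, as a mean, at resolution 1.0 and without the osteocalcin cluster.

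For Lgr4 the stromal to endothelial ratio was 2.36, 1.48, 1.5 and 1.55 in the adult (abundant targets, mean, deepest cells, osteocalcin cluster), 1.74 (RSEC) and 1.96 (raw) in the E18.5 BM library, and 0.465 with the marker gate in the E18.5 EC library. The adult chondrocyte to stromal ratio was 0.798 (RSEC), 0.699 (raw), 0.330, 0.402, 0.493 and 0.446 (in the order of the adult list above). The ratio of Ptprc to stromal-like cells was 0.916 (RSEC), 0.952 (raw), 0.297 (abundant targets) and 0.849 (without cells with markers of both types) in the adult, also with haematopoietic-like cells alone. In the E18.5 BM library it was 0.712 (RSEC), 0.728 (raw), 0.733 (marker gate), 0.488 (mean) and 0.550 (both types), and with haematopoietic-like cells alone, 0.124, it was 0.252 (20 components), 0.233 (RSEC), 0.201 (raw), 0.172 (50 molecules), 0.298 (abundant targets), 0.733 (marker gate) and 0.237 (resolution 1.0). In the E18.5 EC library it was 0.846 (marker gate), and 0.667 (both types) with haematopoietic-like cells alone, against 0.294. Lgr4 by Rspo2 in adult stroma, 1.16, was 0.915 (RSEC), 0.716 (raw), 0.759 (abundant targets), 0.933 (deepest cells) and 0.871 (osteocalcin cluster), and in the Mmp13, Spp1, Postn cluster 1.06 in RSEC molecules against 0.533.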
